A study of Oryza sativa with 2 samples.

Results

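The loci described here are the 68 on the chloroplast and mitochondrial chromosomes, of 1349 in a survey of intermediate-size non-coding RNA in rice (Oryza sativa). They were chosen by chromosome name alone, 36 on chrC and 32 on chrM, taken here as the chloroplast and the mitochondrial genome, as is usual for rice. The stage 2 library came from anther, pistil and grouting embryo, and the stage 1 library from coleoptiles, radicals, shoot and tillering leaves. Both were made from total RNA of 50 to 500 nt without a genotype, cultivar or treatment in the labels, which do not say whether tissues were pooled. Each stage had 1 library, so nothing here has a replicate error, and every comparison is between 2 libraries, not between the stages. Summed over the listed loci, the reads came to 117798 in stage 2 and 80651 in stage 1. These sums serve as library totals here. They do not cover reads outside the lists and may count a read at several loci. The loci carry numbers and no gene names, so the labelled tissues could not be checked against marker genes, and whether fewer cells of a type or less RNA per cell lies behind a difference cannot be told apart in tissue mixtures.

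Plastids and mitochondria keep small genomes of their own, which encode ribosomal RNAs, transfer RNAs and part of the proteins of photosynthesis and respiration. Many plastid genomes hold a large inverted repeat, in which the same genes stand as mirrored copies. Plant mitochondrial genomes often carry long repeats that recombine, and plant nuclear chromosomes contain inserted stretches of both organelle genomes. A short RNA that maps to an organelle locus can therefore match several positions equally well.

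Organelle loci held a small share of the reads listed for either library. Chloroplast loci took 72 reads in stage 2 and 92 in stage 1. Of all listed reads these are 0.0611% (exact Clopper-Pearson 95% limits 0.0478 and 0.0770) and 0.114% (0.0920 and 0.140). Mitochondrial loci took 1014 reads in stage 2 and 1247 in stage 1, or 0.861% (0.809 and 0.915) and 1.55% (1.46 and 1.63). In reads per 1e6 listed reads (RPM), the stage 2 to stage 1 ratio was 0.536 for chloroplast loci (95% interval 0.388 to 0.737). For mitochondrial loci it was 0.557 (0.512 to 0.605). Both were lower in stage 2 beyond counting error if each listed read is a separate molecule. The mitochondrial total, however, enters 1 pair of read numbers at 5 loci. Every set of equal length and reads was then entered once, also in the library totals. The mitochondrial ratio so obtained was 0.847 (0.731 to 0.982) and the chloroplast ratio 0.574 (0.412 to 0.796). On the listed totals, the mitochondrial ratio with each set entered once was 0.832 (0.718 to 0.965). Without those 5 loci the mitochondrial ratio was 1.77 (1.44 to 2.19). Divided by the ratio of nuclear loci, the 2 ratios as listed came to 0.532 (0.385 to 0.732) and 0.553 (0.508 to 0.601). Both organelle totals as listed thus differed from the nuclear total, if no read is counted on both sides. Reads may be, since 33 of 36 chloroplast and 29 of 32 mitochondrial loci had a nuclear locus of equal length and reads. Over the few chloroplast loci without one, the interval of the stage 2 to stage 1 ratio included 1 (0.222 to 1.69). The chloroplast ratio over the mitochondrial ratio was 0.962, and its interval of 0.689 to 1.34 leaves room for a difference in either direction.

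The 2 chromosomes reached those totals in different ways. The median chloroplast locus had 3 reads over both libraries and the strongest had 21, and only 1 of 36 reached 20 reads. The median mitochondrial locus had 5 reads and the strongest 361, and 13 of 32 reached 20 reads (40.6%), beside 36.6% of nuclear loci and a nuclear median of 4. Loci with 3 reads or fewer made up 22 of the 36 chloroplast loci (61.1%) and 13 of the 32 mitochondrial loci (40.6%), beside 44.3% of nuclear loci. Measured to the highest end listed on each chromosome, loci stood at 279 per Mb on chrC and 68.6 per Mb on chrM, against 3.49 per Mb on the nuclear chromosomes.

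**Figure D1:**
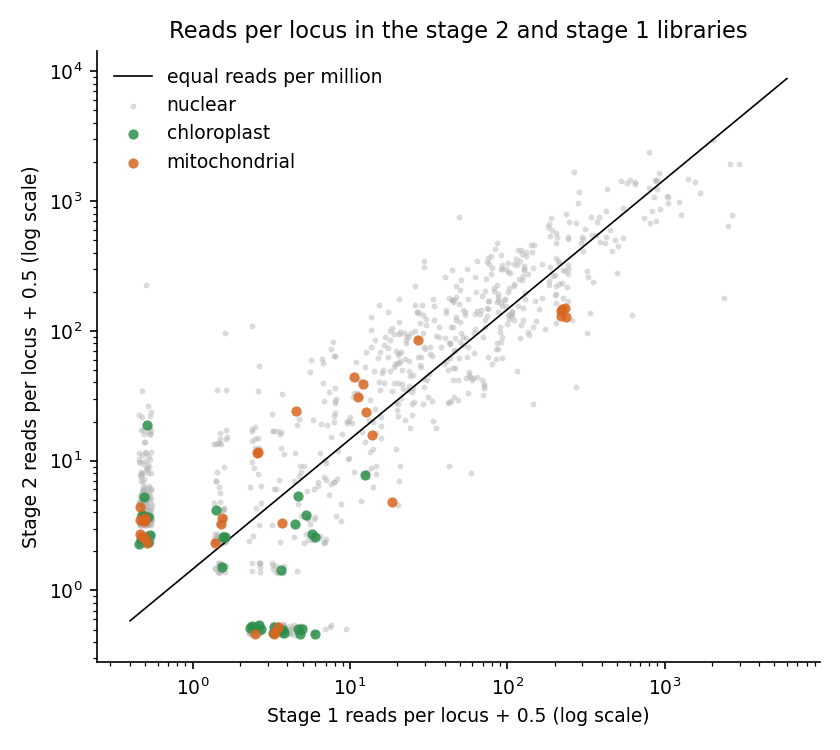
Reads per locus in stage 2 (vertical axis) against stage 1 (horizontal axis), both with 0.5 added on log scales and a small random shift, for nuclear, chloroplast and mitochondrial loci; the line marks equal RPM. Chloroplast loci gather at low counts, with at most 21 reads over both libraries, while the 5 mitochondrial loci of 137 stage 2 and 224 stage 1 reads lie below the line.

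The next comparison asked which library listed each locus. Of the 36 chloroplast loci, 11 were in both lists, 9 in the stage 2 list alone and 16 in the stage 1 list alone. As shares these are 30.6%, 25.0% and 44.4%, where all 1349 loci gave 48.3%, 37.9% and 13.8%. Stage 1 only loci were thus a larger share on chrC than in the whole table, in the library with fewer listed reads. No test of that difference was made, and the shares were not matched for depth. Loci of 3 reads or fewer were 61.1% on chrC and 44.7% of all loci. With at least 5 reads, 1 chrC locus was stage 1 only, 2 were stage 2 only and 7 were in both lists. Of the 32 mitochondrial loci, 19 were in both lists (59.4%), 9 in the stage 2 list alone (28.1%) and 4 in the stage 1 list alone (12.5%). The mitochondrial shares lay nearer those of the whole table.

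Most organelle loci of a single list rested on very few reads. The 9 chloroplast loci of stage 2 only had 2 to 17 reads and the 16 of stage 1 only had 2 to 5, both with a median of 3. Their summed reads were 39 in the stage 2 only loci and 48 in the stage 1 only loci. The 9 mitochondrial loci of stage 2 only had 2 to 4 reads and the 4 of stage 1 only had 2 or 3. A count of 0 allows up to 3 reads, which is 25.5 RPM in stage 2 and 37.2 RPM in stage 1, so at this depth these absences are not shown to be differences. The exceptions by counting error were JNnc_loci1300 and JNnc_loci1288, both on chrC. JNnc_loci1288, 97 nt on the minus strand, had 0 reads in stage 2 and 5 in stage 1, with an upper interval limit of 0.747 for the ratio. It alone had an interval away from 1 among the 34 chloroplast and 17 mitochondrial loci with fewer than 10 reads. The intervals are not corrected for the number of loci, so it is not an established difference.

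JNnc_loci1300 was the shortest organelle locus and the only one of a single list with more than 5 reads. It is 45 nt long on the plus strand of chrC, from 47138 to 47182, below the lower limit of the size fraction. It had 17 reads in stage 2 and 0 in stage 1, which is 144 RPM against a floor of 37.2 RPM. Set against that floor it was 3.88-fold higher, a value that leaves out the counting error of the 17 reads. With that error the exact interval of the ratio ran from 2.83, or from 2.04 relative to the median ratio of all loci with 20 or more reads. Without it the chloroplast loci had 55 reads in stage 2 and 92 in stage 1, a ratio of 0.409 (0.288 to 0.578). This locus thus stood against the direction of the other chloroplast reads. The nuclear list holds 6 loci of the same length and reads.

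The other chloroplast locus with 10 or more reads was JNnc_loci1307, 170 nt on the plus strand at 74063 to 74232. It had 8 reads in stage 2 and 13 in stage 1, with a ratio of 0.421 whose interval of 0.151 to 1.10 includes 1. The longest chloroplast locus, JNnc_loci1284, spans 347 nt on the minus strand at 4351 to 4697 and had 5 reads in stage 2 and 4 in stage 1, with a ratio of 0.856 (0.184 to 4.31). Of the 11 chloroplast loci in both lists, 8 had a ratio under 1 and 3 a ratio over 1, and none had an interval that left out 1. On the listed totals, the chloroplast difference is therefore carried by the sum over many weak loci, not by any locus of both lists on its own. Relative to the median ratio used above for JNnc_loci1300, JNnc_loci1307 was at 0.304 (0.109 to 0.790), which left out 1. The other chloroplast loci of both lists were not tested on that scale.

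Strand and length classes were compared within chrC, a comparison chosen after the values were seen. The 18 minus-strand loci had 21 reads in stage 2 and 48 in stage 1, a ratio of 0.300 (0.170 to 0.510). The 18 plus-strand loci had 51 reads in stage 2 and 44 in stage 1, a ratio of 0.794 (0.520 to 1.22). The minus-strand ratio over the plus-strand ratio was 0.380 (0.186 to 0.759), but without JNnc_loci1300 it was 0.568 with an interval of 0.270 to 1.18, so the contrast rested on that locus. In addition, 3 pairs of chrC loci with equal length and reads stand on opposite strands. The intervals treat their reads as separate, and the contrast with each pair entered once was not tested. By length, the 10 loci under 70 nt had 29 reads in stage 2 and 17 in stage 1, the 14 loci of 70 to 99 nt had 19 and 28, and the 8 loci of 100 to under 200 nt had 12 and 34. The ratios were 1.17 (0.621 to 2.27), 0.465 (0.245 to 0.862) and 0.242 (0.114 to 0.478). The 4 loci of 200 nt or more had 12 reads in stage 2 and 13 in stage 1, a ratio of 0.632 (0.264 to 1.50). The shortest class includes JNnc_loci1300, which supplied 17 of its 29 stage 2 reads.

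Lengths of organelle loci covered the range of the size fraction. The median was 85.5 nt on chrC (quartiles 68 and 116) and 92 nt on chrM (61 and 112), beside 87 nt for nuclear loci (69 and 126). Loci of 70 to 99 nt, the range in which transfer RNAs fall, numbered 14 of 36 on chrC (38.9%) and 11 of 32 on chrM (34.4%), beside 36.4% of nuclear loci; no locus was identified as a transfer RNA. Chloroplast loci ran from 45 to 347 nt. Mitochondrial loci ran from 50 to 637 nt, and the 2 of 637 nt are longer than the 500 nt at which RNA was collected. Only 2 of the 1281 nuclear loci were over 500 nt. They include JNnc_loci0101 on chromosome 1, with the length and both read numbers of the mitochondrial loci of 637 nt. These loci may therefore share reads, which was not tested.

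**Figure D2:**
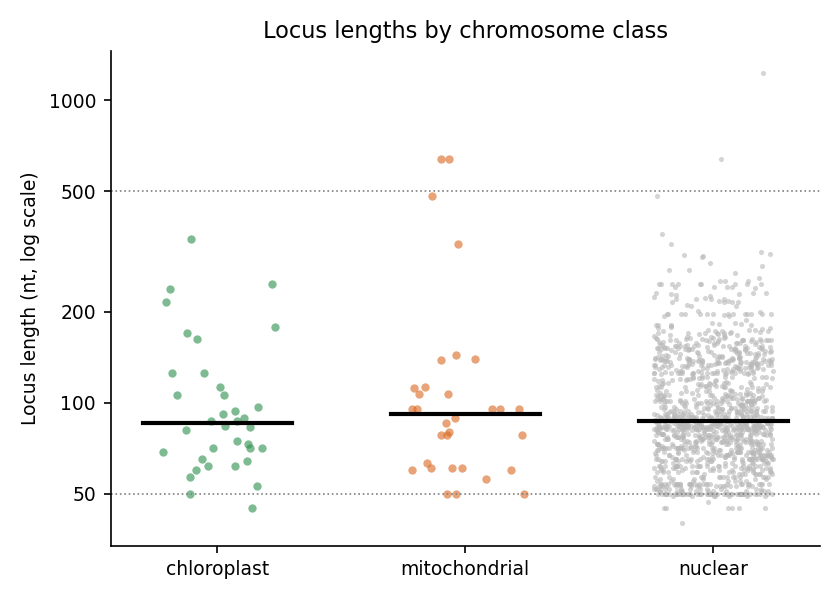
Length of each locus in nt on a log scale, by chromosome class, with a horizontal bar at each median (85.5, 92 and 87 nt) and dotted lines at 50 and 500 nt, the limits of the size fraction. Horizontal position within a class is random. One chloroplast locus lies below the lower line and 2 mitochondrial loci lie above the upper line.

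Repeated segments were sought as members of 1 chromosome with equal length and equal reads in both libraries whose positions repeated in step. Such sets held 6 chloroplast loci in 3 pairs and 17 mitochondrial loci in 7 sets, so the 32 mitochondrial loci comprised 22 different combinations of length and reads, and the 36 chloroplast loci 33. At least 2 sets kept a fixed distance or a fixed mirror point in 4 segments, 1 on chrC and 3 on chrM. In each segment the distances, or mirror points, agreed to the nucleotide, and no other member lay within either copy. Equal reads at repeated positions mean that the read totals of such sets may count the same reads more than once. Whether they do was not tested.

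On chrC the segment was mirrored. JNnc_loci1310, JNnc_loci1311 and JNnc_loci1312 lay on the minus strand between 86276 and 87506, and JNnc_loci1315, JNnc_loci1316 and JNnc_loci1317 lay on the plus strand between 127613 and 128843, in reverse order. Each copy spans 1231 nt. JNnc_loci1310 and JNnc_loci1317 are 87 nt long, and each had 0 reads in stage 2 and 3 in stage 1. JNnc_loci1311 and JNnc_loci1316 are 71 nt long with 2 reads in stage 2 and 1 in stage 1, and JNnc_loci1312 and JNnc_loci1315 are 125 nt long with 0 reads in stage 2 and 3 in stage 1. Mirrored order on opposite strands is the form of an inverted repeat, but each of these loci rests on 3 reads. Between the copies lay JNnc_loci1313 and JNnc_loci1314 alone, and the widest stretch of chrC without a locus, 18556 nt, separated JNnc_loci1312 from JNnc_loci1313.

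On chrM the 3 segments were repeated in the same orientation. The longest held 4 loci in each copy over 23736 nt, from 361785 to 385520 and from 442872 to 466607, 81087 nt apart. Its loci were the 637 nt pair JNnc_loci1337 and JNnc_loci1346, each with 42 reads in stage 2 and 11 in stage 1, the 78 nt pair JNnc_loci1338 and JNnc_loci1347 with 2 and 0, the 50 nt pair JNnc_loci1339 and JNnc_loci1348 with 2 and 0, and the 61 nt pair JNnc_loci1340 and JNnc_loci1349 with 3 and 1. A second segment of 16713 nt began at 9533 and again at 104060, 94527 nt apart, and joined the 95 nt loci JNnc_loci1318 and JNnc_loci1322 to the 60 nt loci JNnc_loci1319 and JNnc_loci1323, which had 0 reads in stage 2 and 3 in stage 1. JNnc_loci1302, on the minus strand of chrC, and 5 nuclear loci had the same length and reads as JNnc_loci1319 and JNnc_loci1323. The chrC and chrM read sums may therefore share these reads, which was not tested. The third segment, of 7849 nt, began at 214749 and again at 273875, 59126 nt apart. It paired the 107 nt loci JNnc_loci1326 and JNnc_loci1330, each with 11 reads in stage 2 and 2 in stage 1, and the 95 nt loci JNnc_loci1327 and JNnc_loci1331.

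**Figure D3:**
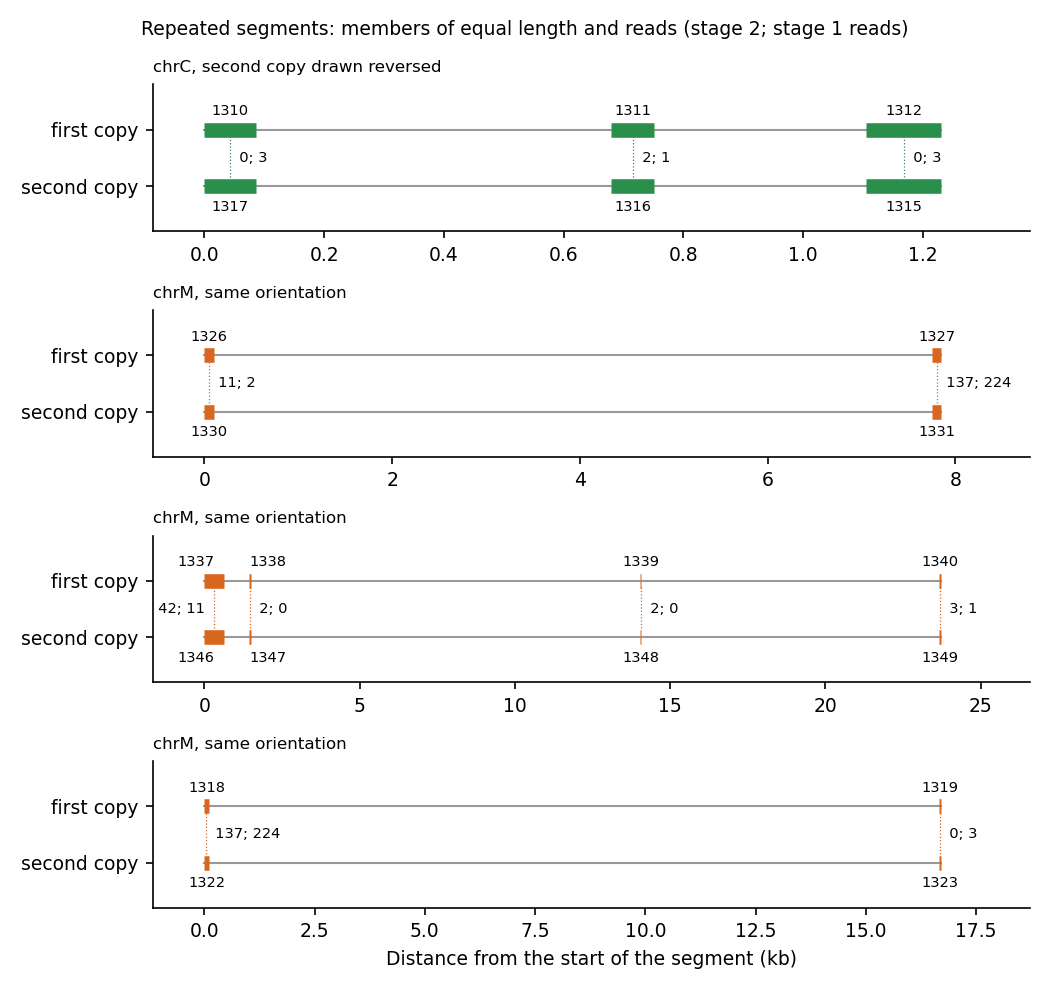
The 4 repeated segments, with both copies of each aligned by distance from the segment's start in kb; boxes are loci labelled by the last 4 digits of their names, and the figures between copies are stage 2 and stage 1 reads. The chrC copy at the bottom of its panel is drawn reversed, and the spans are 1231, 7849, 23736 and 16713 nt in the order shown.

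The strongest organelle signal was a set of 5 mitochondrial loci of 95 nt with equal reads. JNnc_loci1318, JNnc_loci1322, JNnc_loci1327, JNnc_loci1331 and JNnc_loci1344 each had 137 reads in stage 2 and 224 in stage 1. The first 2 are on the plus strand and the other 3 on the minus strand, and 4 of the 5 belong to repeated segments, while JNnc_loci1344 at 412550 to 412644 stands alone. Per locus this is 1163 RPM in stage 2 and 2777 RPM in stage 1, a ratio of 0.419 (0.336 to 0.520). Per 100 nt of locus it is 1224 RPM in stage 2 and 2924 RPM in stage 1, against 163 and 64.2 RPM per 100 nt for JNnc_loci1328, the mitochondrial locus next in reads. The nuclear list has 1 locus of the same length and reads, JNnc_loci0611 on chromosome 4.

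That set held most of the mitochondrial reads. Its 5 loci held 685 of the 1014 stage 2 reads (67.6%) and 1120 of the 1247 stage 1 reads (89.8%). The other 27 mitochondrial loci had 329 reads in stage 2 and 127 in stage 1, a ratio of 1.77 (1.44 to 2.19), opposite in direction to the total. Relative to the median ratio of all loci with 20 or more reads, 1.39, it was 1.28 (1.04 to 1.58), and with each set entered once as well it was 1.21 and included 1 (0.963 to 1.52). With every set of equal length and reads entered once, also in the library totals, the whole mitochondrial ratio was 0.847 (0.731 to 0.982). The ratio of 1 locus of the 95 nt set over that of the other mitochondrial sets, each entered once, was 0.251 (0.182 to 0.344). Scaled to the listed totals, reads listed on chrM thus differed between the libraries in both directions. Relative to the median ratio with each set entered once, the summed reads outside the 95 nt set showed no such difference.

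**Figure D4:**
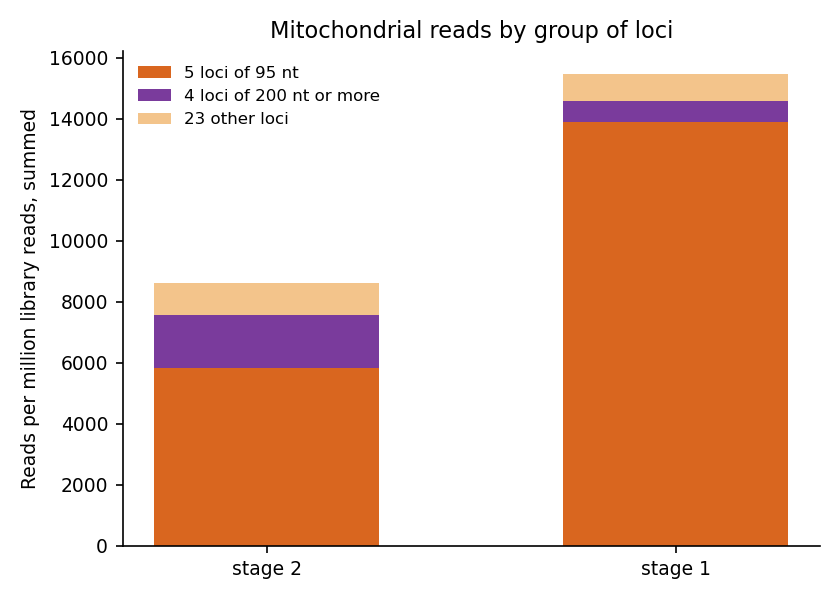
Summed RPM of mitochondrial loci in stage 2 and stage 1, stacked by group of loci (5 loci of 95 nt, 4 loci of 200 nt or more, 23 other loci); each bar is 1 library, without error bars. The 95 nt loci make up 67.6% of mitochondrial reads in stage 2 and 89.8% in stage 1, and the loci of 200 nt or more are the larger in stage 2.

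Of the 4 mitochondrial loci of 200 nt or more, 3 were higher in stage 2 beyond counting error, where 48.4% of all 483 loci with 20 or more reads were. The 3 include the 637 nt pair of equal reads. Relative to the median ratio of those 483 loci, the interval of that pair included 1 (0.953 to 4.06). JNnc_loci1328 (483 nt, plus strand, 262996 to 263478) counted 93 reads in stage 2 and 25 in stage 1, a ratio of 2.55 (1.62 to 4.14). The 637 nt loci JNnc_loci1337 and JNnc_loci1346, with 42 reads in stage 2 and 11 in stage 1 each, were at 2.61 (1.32 to 5.63). JNnc_loci1336 (334 nt, plus strand, 340002 to 340335) counted 30 reads in stage 2 and 10 in stage 1, and its ratio of 2.05 did not leave out 1 (0.977 to 4.71). Together these 4 loci had 207 reads in stage 2 and 57 in stage 1, a ratio of 2.49 (1.85 to 3.39). Set against the 23 mitochondrial loci outside both groups, which had 122 reads in stage 2 and 70 in stage 1 (1.19, 0.882 to 1.62), their ratio was 2.08 times as high (1.35 to 3.23), and 2.20 times (1.37 to 3.56) with each set entered once. Those 23 loci mix strands, and all 4 long loci are on the plus strand. Against the 12 shorter plus-strand loci alone, which had 48 reads in stage 2 and 11 in stage 1 (2.99, 1.53 to 6.38), the ratio of the long loci was 0.833 times as high (0.366 to 1.76), so no difference by length was detectable within the strand. The grouping was made once the values were known.

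Shorter mitochondrial loci differed from one another. JNnc_loci1335 (140 nt, minus strand, 321316 to 321455) counted 23 reads in stage 2 and 4 in stage 1, a ratio of 3.94 (1.35 to 15.7). JNnc_loci1329 (89 nt, minus strand, 269082 to 269170) counted 4 reads in stage 2 and 19 in stage 1, and its ratio of 0.144 (0.0357 to 0.434) was the lowest among organelle loci with reads in both libraries. It lies 5603 nt beyond the end of JNnc_loci1328, on the opposite strand, and the pair differed in opposite directions. JNnc_loci1321, of 144 nt, had 22 reads in stage 2 and 12 in stage 1, and JNnc_loci1333, of 113 nt, had 16 reads in stage 2 and 14 in stage 1. Their ratios of 1.26 (0.595 to 2.78) and 0.782 (0.358 to 1.73) included 1, as did that of the 107 nt pair JNnc_loci1326 and JNnc_loci1330, at 3.77 (0.822 to 35.0). The shortest mitochondrial loci, of 50 nt, were JNnc_loci1324, with 4 reads in stage 2 and 0 in stage 1, and the repeated pair JNnc_loci1339 and JNnc_loci1348.

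By strand, and without the 95 nt set, the 16 plus-strand mitochondrial loci had 255 reads in stage 2 and 68 in stage 1, a ratio of 2.57 (1.96 to 3.41). The 11 minus-strand loci had 74 reads in stage 2 and 59 in stage 1, a ratio of 0.859 (0.602 to 1.23). The minus-strand ratio over the plus-strand ratio was 0.335 (0.212 to 0.529). Among loci under 200 nt it was 0.289 (0.124 to 0.627), and 0.323 (0.119 to 0.788) with each set entered once. Both intervals left out 1 without the long loci. JNnc_loci1329 supplied 4 of the 74 minus-strand reads in stage 2 and 19 of the 59 in stage 1. Whether the contrast holds without that locus was not tested. This contrast too was picked with the values in view.

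Among organelle loci with 20 or more reads over both libraries, the interval lay above 1 in 4 and below 1 in 6 of 14, where 48.4% and 22.8% of all 483 such loci did so. The 6 are the 5 loci of the 95 nt set and JNnc_loci1329, and the 4 are JNnc_loci1328, JNnc_loci1335, JNnc_loci1337 and JNnc_loci1346. With each set entered once they are 2 below 1 and 3 above 1, of 8 mitochondrial sets and 1 chloroplast locus, where 22.0% and 49.1% of all 446 loci so entered did so. Over all 483 loci the median log2 ratio, stage 2 over stage 1 with 0.5 reads added, was 0.47. It was -0.36 over the 13 mitochondrial loci of that depth and 0.65 over their 8 sets each entered once. Relative to the median of all loci JNnc_loci1328 stayed above 1 at 1.84 (1.17 to 2.98), whereas JNnc_loci1335 at 2.84 (0.969 to 11.3) and the 637 nt pair at 1.88 (0.953 to 4.06) then included 1. JNnc_loci1307 lay below 1 on that scale, at 0.304 (0.109 to 0.790).

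**Figure D5:**
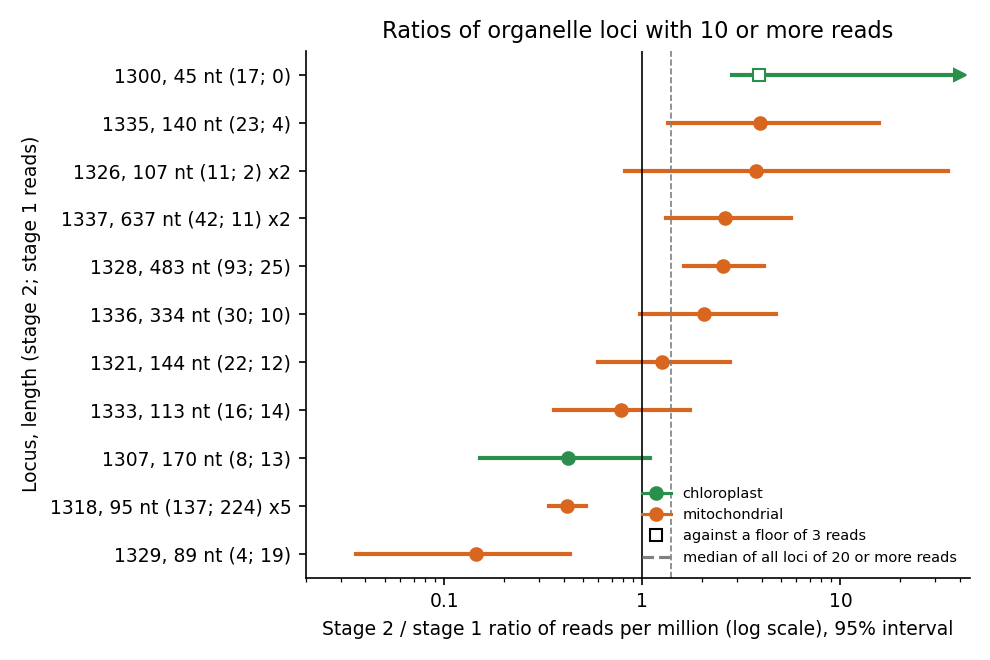
Stage 2 over stage 1 ratio of RPM on a log axis, with exact 95% intervals for counting error, for chloroplast and mitochondrial loci of 10 or more reads, 1 row for each combination of length and reads; labels give the last 4 digits of the name, the length, and stage 2 and stage 1 reads, with x5 or x2 for sets. The open square is JNnc_loci1300 against the floor of 3 reads and the arrow an interval without an upper end; JNnc_loci1329 and the 95 nt set lie wholly below 1.

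Opposite-strand overlap was seen on chrC and not on chrM. JNnc_loci1308, 53 nt on the minus strand with 2 reads in stage 2 and 6 in stage 1, lay wholly within JNnc_loci1307. JNnc_loci1305, 73 nt on the plus strand with 1 read in each library, overlapped 38 nt of JNnc_loci1306, 216 nt on the minus strand with 3 reads in stage 2 and 5 in stage 1. Of the 12 opposite-strand overlaps in the whole table, these are 2, and 8 of the 10 nuclear ones had the lengths and reads of one of these pairs. Overlaps took in 4 of 36 chloroplast loci (11.1%) and 19 of 1281 nuclear loci (1.48%). On the same strand, 4 chloroplast pairs and no mitochondrial pair lay at most 500 nt apart. They took in 8 of 36 chloroplast loci (22.2%), beside 31.7% of nuclear loci. Of the 4, 2 are the mirrored copies of 1 pair, JNnc_loci1311 with JNnc_loci1312 and JNnc_loci1315 with JNnc_loci1316, each 355 nt apart. The others were JNnc_loci1292 with JNnc_loci1293 at 190 nt and JNnc_loci1295 with JNnc_loci1296 at 376 nt. In the closest pair the libraries differed: JNnc_loci1292 had 3 reads in stage 2 and 0 in stage 1, and JNnc_loci1293 had 0 in stage 2 and 4 in stage 1.

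Nearly all organelle loci with enough reads to compare had the length and both read numbers of another locus. Among those with 10 or more reads it was 16 of 17 (94.1%), and 63 of 541 nuclear loci (11.6%), a comparison without a test. The exception was JNnc_loci1335, and all 16 had such a partner on a nuclear chromosome. On chromosome 12, JNnc_loci1242, JNnc_loci1245, JNnc_loci1249, JNnc_loci1251 and JNnc_loci1252, between 20434794 and 20627238, had the values of JNnc_loci1336, JNnc_loci1321, JNnc_loci1326, JNnc_loci1329 and JNnc_loci1328. Over all depths, 33 of 36 chloroplast and 29 of 32 mitochondrial loci had a nuclear partner, though equal values are easily met at 2 or 3 reads. Reads of an organelle transcript and of a nuclear copy with the same sequence cannot be told apart in these lists.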

How the data were processed

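Per the labels' protocols, RNA of 50 to 500 nt was adaptor-ligated and pyrosequenced without amplification of the cDNA, and the authors deposited 1 list of loci per library. Column 5 was read as the deposited read count per locus, not normalized, because its values are whole numbers and the list totals differ. BED counting was assumed, so 1 was added to each start. Genome build, aligner and the handling of multiply matching reads are not given in the sources used.

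Lists were joined by locus name, with 0 for an absent locus, in Python 3.11.15 with pandas 2.3.3. Members are all loci on chrC or chrM. Where each set was entered once in the whole table, nuclear loci with the length and reads of a member were left out. Their reads thus counted for the organelles only, and a set found on both chrC and chrM was entered on each. Reads per 1e6 (RPM) used the sum of each whole list. Ratios carry exact conditional binomial 95% intervals, and ratios of 2 ratios carry exact conditional odds-ratio intervals (SciPy 1.17.1). The interval script was tested on simulated data. Intervals and floors cover counting error only and treat reads as independent molecules. A locus at 0 was set against a floor of 3 reads in that library. Log2 ratios used 0.5 added reads. Values were given in both libraries for members with 10 or more reads, members of repeated segments and the shortest and longest member of each chromosome; any other member named was chosen after its values were seen. The members and lists were chosen with earlier results of these data known. No annotation of the files' build was used, so no locus is placed in a gene and no sequence is printed.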

Additional observations from a re-analysis of the deposited data

How the results depend on the processing

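Of 40 alternative values, 27 kept their direction and call or stayed within 1.5 times their count. The mitochondrial ratio reversed to 1.77 without the 95 nt set, because that set holds most mitochondrial reads. The chloroplast ratio stayed below 1 at 0.616 over members with no nuclear locus of equal length and reads, but its interval (0.222 to 1.69) then included 1 because only 3 loci enter; this alternative was chosen after the data were seen. Scaled to the median ratio, 1 organelle locus of 20 or more reads was above 1. With each set entered once, 2 were below 1 and 12 mitochondrial loci were in both lists. With at least 5 reads, chrC kept 7 loci in both lists, 2 in stage 2 only and 1 in stage 1 only, chrM kept 0 in stage 2 only and 0 in stage 1 only, and 1 repeated segment was left, because weak loci drop out. Neighbouring pairs numbered 1 within 200 nt and 10 within 1000 nt, by construction of the distance. No paired analysis was possible because the design has 1 library a stage, which also means that none can be left out. Depth limits the chloroplast loci most, since 34 of 36 had fewer than 10 reads.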
